A study of Mus musculus with 9 samples.

Results

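The genes that encode the proteins of the cytosolic ribosome were followed across semimature CD4 single-positive (SP4) thymocytes that differ in a reporter of TCR signaling. Members were taken by symbol: those that begin with Rpl or Rps and a digit, plus Rpsa and Rplp0 to Rplp2, without names that mark a pseudogene by -ps and without the Rps6k kinases, and with a mean over all 9 samples of at least 1 TPM, a length-scaled share of each library. That gave 92 of the 41978 genes in the table. They comprise 46 proteins of the large (60S) subunit, 31 of the small (40S) subunit, 7 paralogs, 7 copies that the annotation calls pseudogenes, and Rps19bp1, a binding partner of Rps19 that matches the rule by name but is no ribosomal protein. Rpl3l, at a mean of 0.861 TPM, and Rps23rg1, at 0.639 TPM, lay just under the minimum. Rpl10l, at 1.16 TPM, and Rpl24, at 1.55 TPM, lay just above it.

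All samples came from thymus of Nur77-eGFP BAC Tg mice on a C57BL/6 background, of both sexes and 3 to 10 weeks old, in which a bacterial artificial chromosome drives GFP from Nr4a1 regulatory sequence. Live CD4+ CD8- CD69+ CD24+ CD25- cells were sorted into the lowest, a middle and the highest 10% of GFP, called GFPlo, GFPmed and GFPhi, with 3 biological replicates each. The sources differ on whether the gate took CD24 low or high cells. The groups differ only by the GFP gate, so no untreated or wild-type control stands beside them.

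Each ribosome holds 1 copy of most of these proteins, and their mRNAs are among the most abundant in dividing and growing cells. Many of these mRNAs begin with a C followed by an unbroken run of pyrimidines, the 5′ terminal oligopyrimidine (TOP) motif, through which mTORC1 signaling controls their translation. In thymocytes, Rpl22 is known for the block in αβ T cell development that follows its loss, and Rpl5 and Rpl11 for tying ribosome assembly to p53.

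Start site sequences are shown because the TOP motif is the feature that these mRNAs are best known to share. Windows of 30 bases, from 15 before the RefSeq start (GRCm38.p6) onward, were searched on the sense strand for a run of at least 5 letters C or T that a C opened or continued within 5 bases of the start. The run is in capitals. Rps15a is at chr7:118116133-118116162 on the minus strand, Rps6 at chr4:86857353-86857382 on the minus strand, and Rpl38 at chr11:114668565-114668594 on the plus strand. Rplp0, at chr5:115559452-115559481 on the plus strand, Rpl13, at chr8:123102335-123102364 on the plus strand, and Rpl37, at chr15:5116598-5116627 on the plus strand, had no such run in this window.
Rps15a: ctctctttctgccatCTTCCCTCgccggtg
Rps6: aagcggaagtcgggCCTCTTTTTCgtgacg
Rpl38: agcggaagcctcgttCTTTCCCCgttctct
Rplp0: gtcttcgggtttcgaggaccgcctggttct
Rpl13: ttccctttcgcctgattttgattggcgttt
Rpl37: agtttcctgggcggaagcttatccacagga

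The next set sets a parent beside its paralogs. Rps27 is at chr3:90213634-90213663 on the minus strand, its paralog Rps27rt at chr9:114982725-114982754 on the minus strand and Rps27l at chr9:66946071-66946100 on the plus strand. Rpl22 is at chr4:152325711-152325740 and Rpl22l1 at chr3:28805493-28805522, both on the plus strand.
Rps27: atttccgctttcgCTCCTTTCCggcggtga
Rps27rt: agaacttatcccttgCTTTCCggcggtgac
Rps27l: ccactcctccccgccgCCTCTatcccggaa
Rpl22: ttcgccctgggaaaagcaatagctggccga
Rpl22l1: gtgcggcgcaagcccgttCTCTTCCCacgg

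Of the 67 members with a RefSeq start in the table used, 31 held such a run (46.3%), and of the 57 subunit genes 27 did (47.4%). Over all 27025 genes with a RefSeq start the share was 21.2%. A match is a description of letters and not of a working site. Absence of a run near the RefSeq start does not mean that the mRNA lacks the motif.

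The libraries were made from a small amount of RNA by SMART-seq v4 and NexteraXT, which mark no strand. Reads solved from the deposited values came to 7466329 to 14946763 on genes per sample, with a median of 9428836. The targeted reporter gene, Nr4a1, checked the sort: its TPM were 213, 187 and 251 in GFPlo, 366, 351 and 406 in GFPmed, and 767, 917 and 836 in GFPhi, so the groups did not overlap. Summed TPM of 9 SP4 markers was alike, at 4961 to 5875 in GFPlo, 5459 to 5794 in GFPmed and 5243 to 6055 in GFPhi. Summed TPM of 6 regulatory T cell markers was 179 to 201 in GFPlo, 352 to 433 in GFPmed and 769 to 887 in GFPhi, although CD25+ cells were gated out. Summed TPM of 5 double-positive thymocyte markers moved the other way, at 53.8 to 56.7, 46.6 to 49.7 and 25.3 to 32.4. The part of these cell markers in any result below was not tested. Summed TPM of 6 B cell markers reached at most 31.4 in any sample, of 6 myeloid and dendritic markers 84.0, of 4 NK and γδ T cell markers 42.6, of 4 thymic epithelial markers 11.8 and of 2 erythroid markers 7.63, and none of the markers in the table was at 0 in every sample of a group.

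The summed level of the 92 genes did not separate the groups. The sum was 23734, 29881 and 33199 TPM in GFPlo replicates 1, 2 and 3, 26368, 30591 and 32893 in GFPmed, and 33207, 30013 and 37111 in GFPhi. GFPlo replicate 1 was the lowest sample and GFPhi replicate 3 the highest, and the groups overlapped. The means were 28938 ± 4802 TPM in GFPlo, 29950 ± 3309 in GFPmed and 33444 ± 3555 in GFPhi (SD, n = 3 each), a GFPhi to GFPlo ratio of 1.16. As a share of reads the genes took 1.08% ± 0.167, 1.12% ± 0.139 and 1.27% ± 0.158 in the same order (SD, n = 3), a ratio of 1.17. In bulk samples, a change in the share of cells of a type and a change in RNA per cell cannot be told apart. The 60S sum was 1.36 to 1.43 times the 40S sum in GFPlo and 1.32 to 1.38 times in GFPhi, again with overlap.

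**Figure D1:**
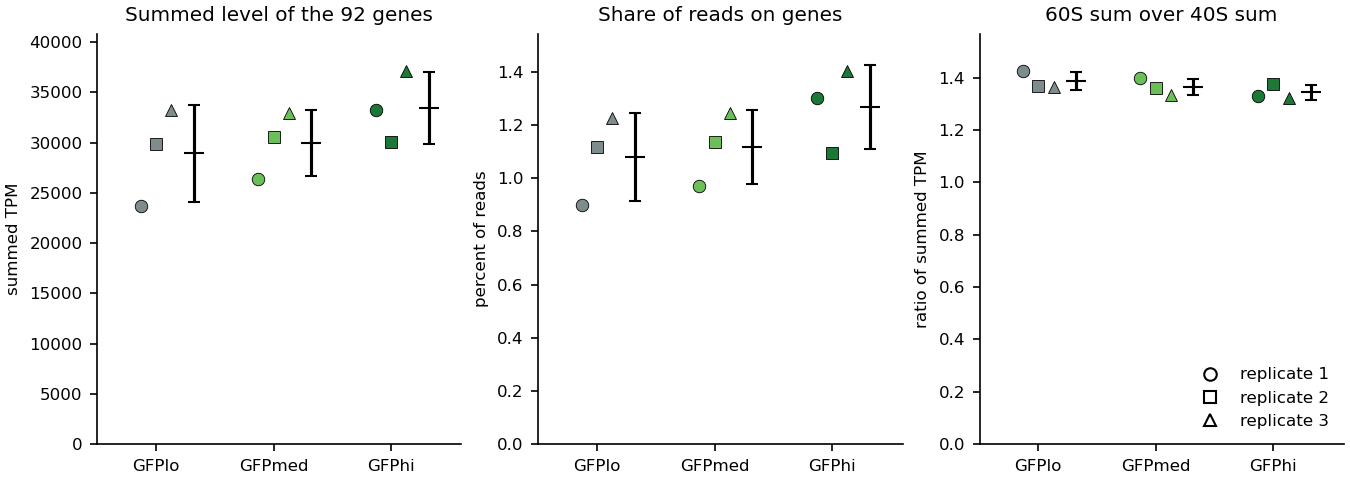
Summed TPM of the 92 genes (left), their percent of reads on genes (middle) and the ratio of summed 60S to summed 40S TPM (right) in each sample, with a marker per replicate and the mean ± SD of 3 samples as a black bar. The groups overlap in all 3 panels, and GFPlo replicate 1 has the lowest sum, 23734 TPM.

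The replicates moved as whole sets. Across the 77 subunit genes, the correlation of a gene's log2(TPM + 1) with the mean of the other subunit genes over the 9 samples had a median of 0.933, and 52 genes reached 0.9; all points share their libraries. GFPlo replicate 1 was the lowest of the GFPlo samples for 76 of the 77 genes, and GFPmed replicate 1 the lowest of the GFPmed samples for 73. In GFPhi, replicate 2 was the lowest for 67. Reads on 1549 olfactory and vomeronasal receptor genes, which thymocytes are not known to use, were highest in replicate 1 of each group, at 4855, 3663 and 4792 RPM (reads scaled to the library's total on genes) in GFPlo, GFPmed and GFPhi. The other 6 libraries held 2249 to 3289 RPM, and the part of this signal in the ribosomal protein values was not tested.

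**Figure D2:**
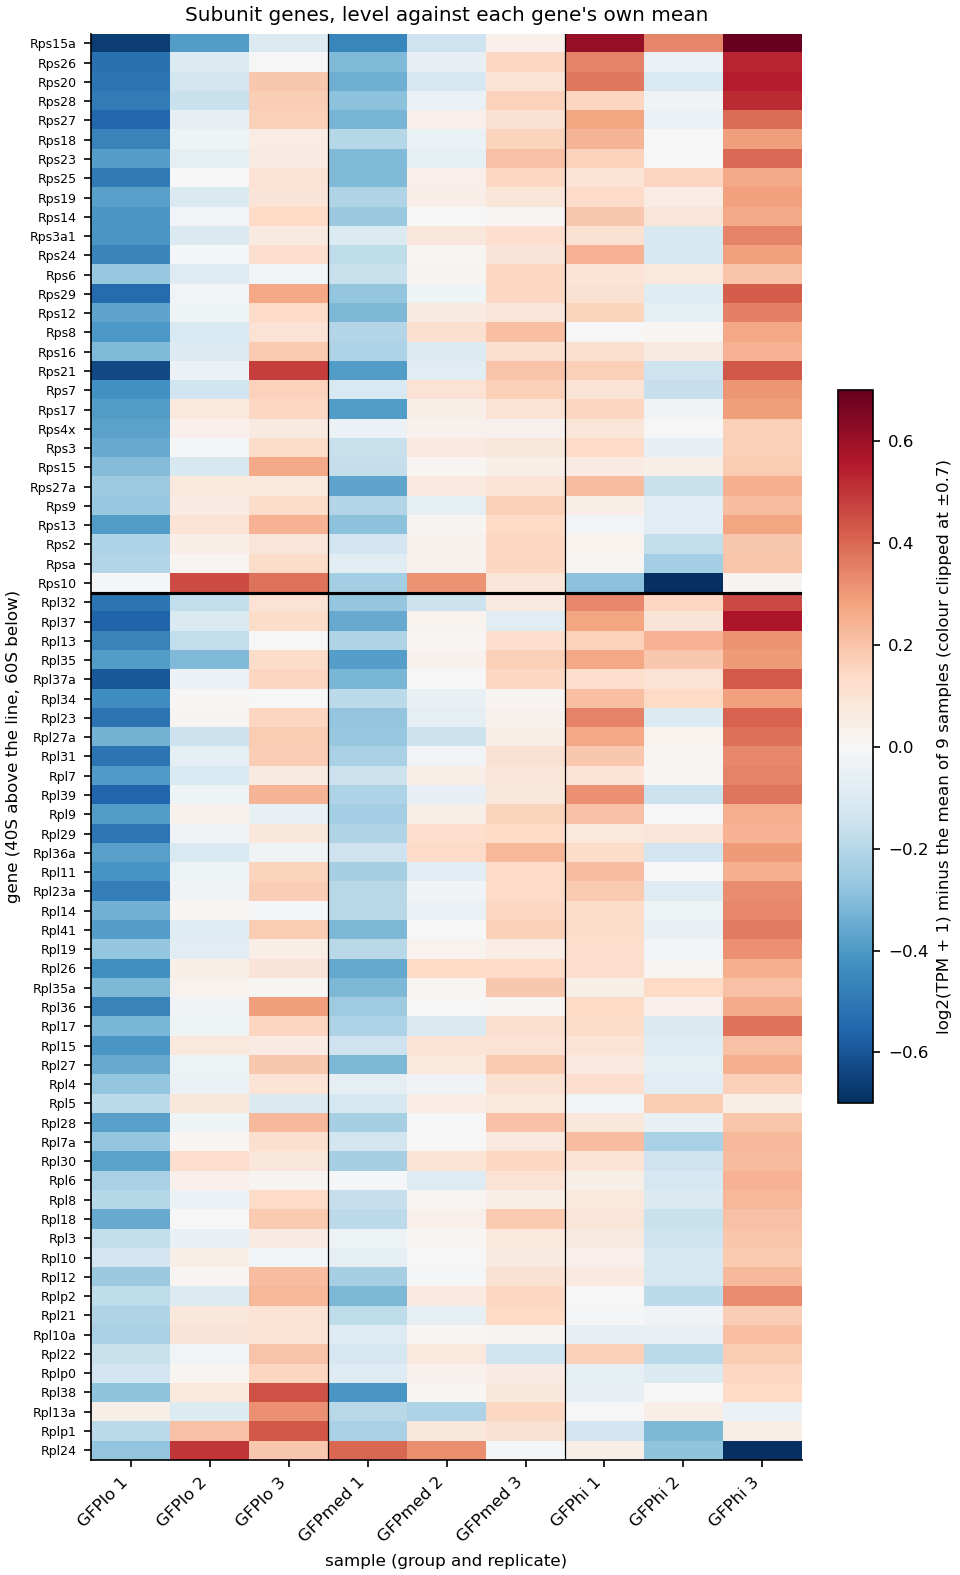
Level of each of 74 subunit genes (rows, 40S above the line and 60S below) in each sample (columns), as log2(TPM + 1) minus the gene's mean over 9 samples. Whole columns shift together, with GFPlo replicate 1 lowest and GFPhi replicate 3 highest for 67 and 64 of the 77 genes, and Rps15a in the top row is high in all 3 GFPhi columns.

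Levels between genes were compared only on TPM recomputed per exonic length, since the deposited TPM divide by the genomic span of the transcripts. On that scale the subunit genes had a median of 207 TPM. Among the highest were Rplp1, a protein of the acidic stalk that recruits elongation factors, at 1006, Rps3a1 at 985, Rplp0, the base of that stalk, at 949, and Rpl32 at 832. In GFPlo, Rplp1 stood at 1121 ± 236 and Rplp0 at 958 ± 95.8 exonic TPM (SD, n = 3), so these did not differ beyond their spread. Rps15a was near the low end of this scale, at 56.9, beside Rpl22 at 49.0 and its paralog Rpl22l1 at 51.1. Exonic length counts every annotated exon base of a gene, not only those of the main transcript. It was 6270 bases for Rps15a against 640 in the main transcript, but 499 in both for Rplp1. Part of the ranking can thus come from the annotation, which was not tested. Deposited means, which are given for identity and do not rank genes, were 1173 TPM for Rpl13, 1165 for Rps27, 1063 for Rplp0 and 1041 for Rpl41. The deposited means of Rpl10l, Rpl24, Rpl39l, Rps3a2 and Rps12l1 were 1.16, 1.55, 1.60, 3.53 and 3.91 TPM.

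The comparison of GFPhi with GFPlo asks which transcripts differ between thymocytes with strong and weak TCR signaling. Only 1 member passed the test, Rps15a, a 40S protein, which was higher in GFPhi. All 92 members passed the filter on low values. At an adjusted p of 0.05 or less and any fold, 1 member was higher and 0 were lower, against 2.38% of all 30693 genes tested called higher and 1.51% called lower (limma on log2(TPM + 1), Benjamini-Hochberg adjustment). With a fold of at least 2 added, 0 members were called, against 1.66% of all genes. At an unadjusted p under 0.05 there were 16 of 92 members, against 13.8% of all genes. Limma-voom on the solved reads called 5 members higher with library totals, against 4.03% of all genes, and none lower. With size factors it called 1 higher, against 869 of all 30691 genes tested, and none lower.

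Rps15a was 53.4, 64.7 and 79.5 TPM in GFPlo, 61.8, 77.0 and 87.3 in GFPmed, and 130, 108 and 145 in GFPhi. Each GFPhi sample was above all GFPlo and GFPmed samples, while GFPlo and GFPmed overlapped. These values rest on 486 to 1907 reads per sample. The GFPhi mean was 1.94 times that of GFPlo, with a log2 fold change of 0.95 ± 0.19 (SE) and an adjusted p of 0.0322 by limma. GFPhi against GFPmed gave 0.76 ± 0.19 and an adjusted p of 0.122 by limma. In GFPmed against GFPlo the log2 fold change was 0.20, with an adjusted p of 1. The gene lies at chr7:118104372-118116188 on the minus strand (GRCm38), none of its exonic bases fell in exons of another gene, and 28.5% of the 100-base windows of its main transcript matched another gene's transcript. The call depended on single libraries: leaving out GFPlo replicate 1 or 2, GFPmed replicate 2, or GFPhi replicate 1 or 3 gave limma adjusted p-values of 0.0900, 0.114, 0.0641, 0.0913 and 0.117. The log2 fold change stayed between 0.760 and 1.097 over all 21 alternative settings.

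Most subunit genes leaned to higher values in GFPhi without passing the test. The log2 fold change was above 0 for 71 of 77 subunit genes and below 0 for 6, with a median of 0.23, beside a median of -0.09 over all genes tested. By subunit, the median was 0.24 over the 31 genes of the 40S and 0.21 over the 46 of the 60S, with 1 and 5 genes below 0. Subunit genes with a pyrimidine run near the RefSeq start had a median of 0.24 (27 genes) and those without one there 0.22 (30 genes). This split is by letters at the annotated start and does not separate mRNAs with and without the TOP motif. The lean rested on GFPlo replicate 1: without it the median of the subunit genes was 0.08, with 58 genes above 0, and all genes tested had a median of -0.0011. Without the 3 libraries numbered 1, a setting chosen after the data were seen, it was 0.06, with 55 above 0.

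GFPhi and GFPlo samples did not overlap for 15 of the 92 members, 12 higher and 3 lower in GFPhi, where 8.26% and 9.92% of all genes tested did so. The 12 included Rps6, Rps15a, Rpl13, Rpl32, Rpl34, Rpl35, Rpl35a, Rpl22l1 and Rps27rt. The 3 were Rpl7l1, Rpl39l and Rps3a3.

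Among 60S genes the highest fold was that of Rpl32, at 317, 401 and 485 TPM in GFPlo, 374, 407 and 473 in GFPmed, and 571, 500 and 623 in GFPhi. The GFPhi samples lay above all others, and the log2 fold change against GFPlo was 0.51 ± 0.16 (SE), with an adjusted p of 0.182 by limma. In 1 of 21 alternative settings, limma-voom on library totals, Rpl32 was called, with an adjusted p of 0.0184. Rpl13 was 836, 1027 and 1160 TPM in GFPlo, 1002, 1166 and 1257 in GFPmed, and 1297, 1372 and 1438 in GFPhi. Here too the GFPhi samples were the highest, at a log2 fold change of 0.45 ± 0.13 and an adjusted p of 0.129 by limma. With quantile normalization the adjusted p was 0.0159 and with limma-voom on library totals 0.00564. Rpl37, at 0.49 ± 0.20, overlapped between the groups. Of the 40S genes, Rps26 stood at 0.48 ± 0.20 and did not pass.

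**Figure D3:**
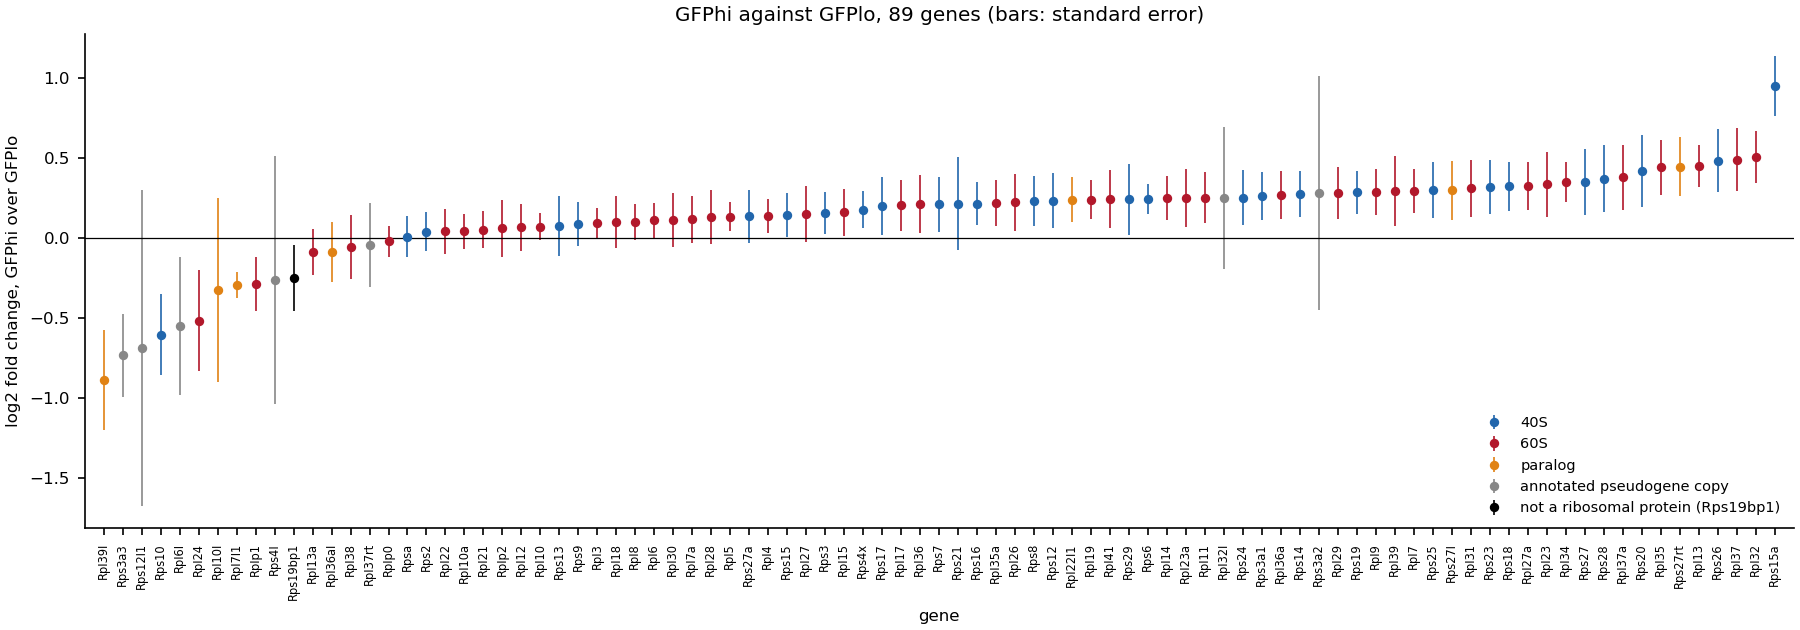
Log2 fold change of GFPhi over GFPlo for each of 89 genes, ordered from lowest to highest and coloured by class, with the standard error as bars. Rps15a, at 0.95, stands apart at the high end, and paralogs, pseudogene copies, Rps10 and Rpl24 make up most of the low end.

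Several well studied proteins stood near 0. Rplp0 was 965, 1071 and 1178 TPM in GFPlo, 995, 1082 and 1101 in GFPmed, and 1011, 987 and 1173 in GFPhi, a log2 fold change of -0.02 ± 0.10 (SE) for GFPhi over GFPlo. Rpsa, also known as the laminin receptor, was at 0.01 ± 0.13, and Rps2 at 0.04 ± 0.12. Rplp2, a stalk protein, was at 0.06, Rpl10, which joins the 60S late, at 0.07, Rpl10a at 0.05 and Rpl3, near the peptidyl transferase center, at 0.09. Rpl5 and Rpl11, which bind MDM2, were at 0.14 and 0.25. Rps6, a substrate of S6 kinase, was at 0.25 ± 0.09, and Rps19, mutated in Diamond-Blackfan anemia, at 0.29 ± 0.13. Rps3, at the mRNA entry, was at 0.16, X-linked Rps4x at 0.18, the ubiquitin fusion Rps27a at 0.14, Rpl36a at 0.27, Rpl39, at the exit tunnel, at 0.30, and Rpl38, known for its part in Hox mRNA translation, at -0.05. None of these passed the test.

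Rplp1 went the other way from most subunit genes. Its TPM were 607, 794 and 931 in GFPlo, 589, 728 and 742 in GFPmed, and 629, 554 and 710 in GFPhi, with overlap between all groups and a log2 fold change of -0.29 ± 0.17 (SE) for GFPhi over GFPlo. As a share of the summed TPM of the 92 genes, however, Rplp1 took 2.56%, 2.66% and 2.80% in GFPlo, 2.23%, 2.38% and 2.26% in GFPmed, and 1.90%, 1.84% and 1.91% in GFPhi. On this measure no group overlapped another, and the spread within GFPhi was 0.0355 percentage points (SD). Rps15a took 0.225%, 0.216% and 0.240% in GFPlo, 0.235%, 0.252% and 0.266% in GFPmed, and 0.392%, 0.360% and 0.390% in GFPhi. Its GFPhi samples again stood apart from the rest. Rplp0 took 3.55% to 4.07% in GFPlo, 3.35% to 3.77% in GFPmed and 3.04% to 3.29% in GFPhi. Its GFPhi samples also lay below all others, so a separate GFPhi group was not particular to Rplp1 on this measure.

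To test the makeup rather than the level, each sample was scaled to the geometric mean of its 77 subunit genes and the fit repeated, a setting chosen after the data were seen in which members themselves set the scale. In GFPhi against GFPlo, 0.994% of all genes tested passed at any fold. Of the members, Rps15a was higher, at a log2 difference of 0.76 ± 0.11 (SE, adjusted p = 0.0207 by limma), and Rplp1 was lower, at -0.48 ± 0.08 (adjusted p = 0.0254 by limma). No other member passed. On this scale GFPhi and GFPlo samples did not overlap for 15 subunit genes higher in GFPhi and 9 lower. Rps15a and Rplp1 were among these, so lack of overlap alone did not set Rps15a or Rplp1 apart. The share of all genes without overlap was not computed on this scale, so whether these counts are unusual cannot be said. GFPhi against GFPmed gave 0.61 for Rps15a and -0.27 for Rplp1, with limma adjusted p-values of 0.111 and 0.365.

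**Figure D4:**
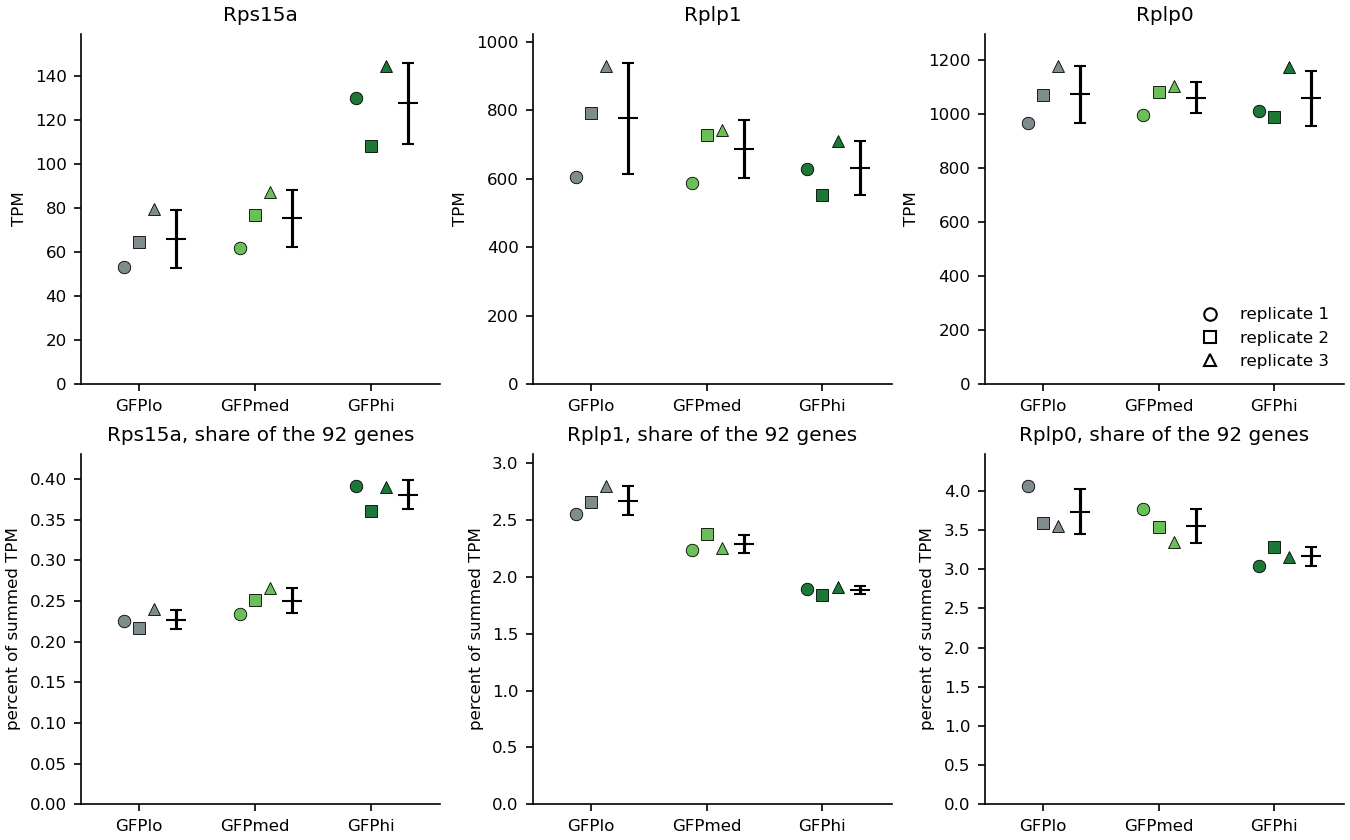
TPM (top row) and percent of the summed TPM of the 92 genes (bottom row) of Rps15a, Rplp1 and Rplp0 in each sample, with a marker per replicate and the mean ± SD of 3 samples as a black bar. As a share, Rps15a is 0.360% to 0.392% in GFPhi and at most 0.266% elsewhere, and Rplp1 steps down from GFPlo to GFPmed to GFPhi without overlap.

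The paralogs, some of which replace or compete with their parent protein in certain tissues, did not move as 1 group, and none passed the test. The log2 fold change of GFPhi over GFPlo was above 0 for 3 of 7 and below 0 for 4, with a median of -0.08. Rpl7l1, a nucleolar relative of Rpl7, was 139, 152 and 164 TPM in GFPlo, 136, 145 and 154 in GFPmed, and 117, 129 and 124 in GFPhi. All GFPhi samples lay below the others, at -0.29 ± 0.08 (SE) and an adjusted p of 0.112 by limma. Rpl7l1 was called lower in 1 of 21 alternative settings, quantile normalization, with an adjusted p of 0.0453 by limma. Its parent Rpl7 was at 0.30. Rpl22 was 38.8, 42.7 and 50.1 TPM in GFPlo, 39.9, 45.8 and 39.3 in GFPmed, and 48.9, 37.9 and 49.1 in GFPhi, with full overlap. Rpl22l1 was 80.8, 114 and 112 TPM in GFPlo, 106, 129 and 113 in GFPmed, and 120, 115 and 125 in GFPhi. Its GFPhi samples were above those of GFPlo by a narrow margin, at a log2 fold change of 0.24 ± 0.14.

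Rps27, Rps27l and Rps27rt had log2 fold changes of 0.35, 0.30 and 0.45. Of the 100-base windows of the Rps27 transcript 98.4% matched another gene's, and of Rps27rt 89.5%, so reads of these genes could be split or dropped. This limit is not particular to them: over the 77 subunit genes the median was 43.9%, with 35 genes above 50%. Rpl39l and Rpl10l, paralogs known from testis, were at 0.479 to 2.86 TPM on 4 to 21 reads per sample and at 0 to 2.99 TPM on 0 to 4 reads. Rpl39l was lower in each GFPhi than in each GFPlo sample, at -0.89 ± 0.31 and an adjusted p of 0.231 by limma. Rpl36al stood at -0.08. Of the 7 pseudogene copies 2 were above 0 and 5 below 0, from -0.73 for Rps3a3 to 0.28 for Rps3a2. Rps3a3 rested on 2 to 13 reads per sample, Rps12l1 (-0.68 ± 0.99) on 0 to 5, and Rpl6l (-0.55 ± 0.43) on 17 to 80. Rps4l was at -0.26 ± 0.78. Rps19bp1 was at -0.25 ± 0.21.

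Rpl24, Rps10 and Rpl13a had the lowest levels per exonic length of the subunit genes, at 3.19, 7.49 and 12.7 TPM. Of the exonic bases of Rpl24, 47.0% lay in exons of Gm28037, of Rps10, 20.6% in RPS10-NUDT3, and of Rpl13a, 29.4% in Gm45713, all on the same strand. Other subunit genes overlapped more on the opposite strand and were high, with 66.2% of exonic bases for Rpl35 and 62.3% for Rpl23a, at 299.6 and 491 exonic TPM. In all, 7 subunit genes had over 25% of their exonic bases in exons of another gene, and the part of overlap in the levels was not tested. Rpl24 had 2 to 21 reads per sample, Rps10 30 to 68 and Rpl13a 62 to 102. Their log2 fold changes were -0.51 ± 0.32, -0.60 ± 0.25 and -0.09 ± 0.15 (SE), and they followed the other subunit genes least, with correlations of -0.316, 0.156 and 0.260 over the 9 samples.

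GFPmed asks whether a middle level of signaling gives a middle level of transcript. In GFPhi against GFPmed 0 members passed at any fold, against 1.51% of all genes tested, and 0 with a fold of at least 2, against 0.691%. At an unadjusted p under 0.05 there were 5 of 92 members, against 10.6% of all genes. Limma-voom called 4 members higher with library totals, against 2.67% of all genes, among them Rpl13, Rpl32 and Rps15a, and 1, Rps15a, with size factors. The lowest adjusted p was 0.0645, for Rps3a3. Of the 77 subunit genes 71 were above 0, with a median of 0.16. In GFPmed against GFPlo 0 members passed, against 0.0749% of all genes at any fold and 0.0586% with a fold of at least 2, and 0 were under an unadjusted p of 0.05 or called by limma-voom. The median over the subunit genes was 0.06. All comparisons share samples with one another.

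Other genes of the ribosome pathway were taken from lists of known factors. Of 53 ribosome biogenesis factors, which make rRNA and assemble subunits in the nucleolus, 8 passed as lower in GFPhi and 0 as higher (limma), where 1.51% and 2.38% of all genes tested did so. The log2 fold change was below 0 for 48 of 53, with a median of -0.29, and below 0 for 18226 of all 30693 genes. The 8 were Rrs1, Ppan, Polr1e, Ftsj3, Polr1a, Wdr12, Nolc1 and Bop1, with log2 fold changes from -0.72 to -0.30. Rrs1, a 60S assembly factor, was 130, 131 and 148 TPM in GFPlo, 130, 129 and 133 in GFPmed, and 73.8, 85.8 and 87.9 in GFPhi. Its GFPhi samples lay far below the others, with an adjusted p of 0.00392 by limma. The number called lower ran from 0 to 18 over 21 alternative settings and from 1 to 6 on leaving out each sample in turn. It was 18 with limma-voom on library totals, where 952 of all genes tested were called lower, beside 464 in the main test. It was 0 with median-of-ratios scaling, with limma-voom on size factors and without the 3 libraries numbered 1. In these settings 75, 229 and 86 of all genes tested were called lower, so the count for this list varied along with that for all genes. At least 45 of 53 were below 0 in each setting that tested all 53. In GFPhi against GFPmed 2 of the 53 passed, both lower, beside 187 of all 30693 genes tested that passed as lower.

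Of 44 other translation factors 22 were above 0 and 22 below 0, with a median of -0.01. Eif4a1, the helicase that unwinds mRNA leaders, passed as lower, at 1535, 1754 and 1676 TPM in GFPlo and 1023, 1302 and 1086 in GFPhi (log2 fold change -0.55 ± 0.09, adjusted p = 0.0195 by limma). It passed in 11 of 21 alternative settings and was between -0.74 and -0.44 in all 21. Its call was lost, among others, with median-of-ratios scaling, without GFPlo replicate 2 or 3, and without GFPhi replicate 1 or 3. With limma-voom on library totals 3 translation factors were called lower and 2 higher, beside 952 and 1238 of all 30691 genes tested. Eif3f, at 0.52 ± 0.13, and Pabpc1, itself a TOP mRNA, at 0.49 ± 0.15, were the highest and did not pass. Of 76 mitochondrial ribosomal proteins tested, 30 were above 0 and 46 below 0, with a median of -0.04. None passed (limma) or was called by limma-voom, and 5 were at an unadjusted p under 0.05, against 13.8% of all genes. Among 20 genes of mTORC1 and growth control 2 passed, both higher, where 2.38% of all genes tested did so. They were Mxd1 and Mxd4, which oppose MYC. Mxd1 passed in all 21 alternative settings and Mxd4 in 8, the latter lost without GFPlo replicate 2 or 3, GFPmed replicate 2, or GFPhi replicate 2 or 3, among others. Mxd1 was 24.5, 21.9 and 25.9 TPM in GFPlo, 32.9, 30.7 and 26.5 in GFPmed, and 77.3, 72.7 and 76.0 in GFPhi, with no overlap of GFPhi with the rest. Myc was at -0.26 ± 0.11 and did not pass. The medians of these 3 lists changed sign with the setting, from -0.20 to 0.09 for translation factors, -0.22 to 0.06 for mitochondrial proteins and -0.18 to 0.11 for growth control, while that of the subunit genes ran from 0.03 to 0.33 and that of biogenesis factors from -0.49 to -0.20.

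**Figure D5:**
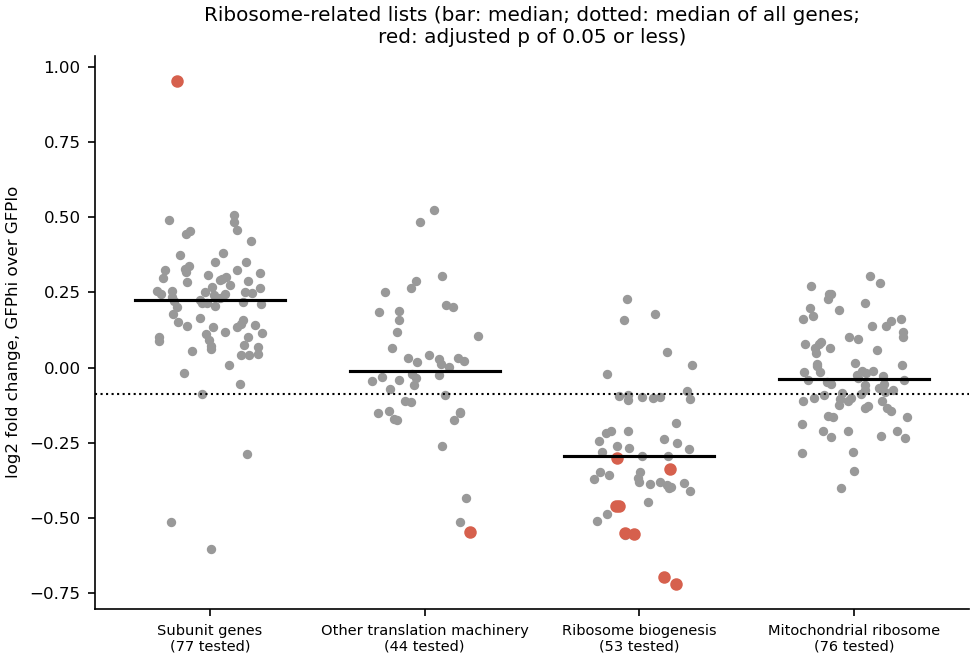
Log2 fold change of GFPhi over GFPlo for subunit genes, other translation factors, ribosome biogenesis factors and mitochondrial ribosomal proteins, a point per gene, with list medians as bars, the median of all genes dotted and genes with an adjusted p of 0.05 or less in red. The subunit genes center on 0.23 and the biogenesis factors on -0.29.

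The 5 genes outside the set whose log2 level followed the mean of the subunit genes most closely over the 9 samples were Tlcd1 (r = 0.962), Eef1b2 (r = 0.957), D730044K07Rik (r = 0.951), Hint1 (r = 0.937) and Gm25415 (r = 0.930). These points share their libraries. Eef1b2 encodes a subunit of elongation factor 1. Tlcd1 lies on the opposite strand of Rpl23a, and 59.7% of the exonic bases of Rpl23a fall in exons of Tlcd1. D730044K07Rik lies on the opposite strand of Rpl30, and 20.4% of the exonic bases of Rpl30 fall in its exons. Without strand, reads from the shared bases of either pair cannot be told apart. Gm25415 had 0 to 7 reads per sample.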

How the data were processed

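Reads were trimmed with Trim Galore 0.6.10, aligned to GRCm38/mm10 with STAR 2.7.11b and counted on GENCODE vM25 by the authors, with identical duplicates removed; they deposited TPM per sample, used here for all tests, and size-factor-normalized group mean signal, which served only to solve reads. The strand column counted is not given in the sources used here. The deposited fold changes and p-values of the authors (DESeq2 1.34.0, per the labels) were not used. Deposited TPM divide counts by mean genomic transcript span, so reads were solved from them for 41974 of 41978 genes and TPM recomputed per exonic length (GENCODE vM21). With no depth in the file itself, precision rests on these solved reads, and counting error is not the only error.

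Samples were grouped by their titles. log2(TPM + 1) of the 30693 genes with at least 1 TPM in 3 samples was fitted with limma 3.58.1 (R 4.3.3) over all 9 samples with trended variance, and p-values were adjusted by Benjamini-Hochberg over all genes. The file holds TPM, so a count test was not the main test, and limma-voom on solved reads was an alternative. Other alternatives were the pseudocount (0.1), filters (none, 5 TPM), scalings, the groups entered, the trend, a replicate block and leaving out each sample. The fit was also run on simulated data, with settings revised after low recovery. There, 7 of 30269 genes passed when none was changed. The simulated replicate spread was smaller than that of the members, so power for these genes cannot be read from it. Named genes were members called, the 6 highest and 6 lowest folds, the 5 highest and lowest deposited means and a fixed list of members with known roles. Of the related lists, genes that passed and the extremes were eligible, and the extremes are given in part. Some members are not reported here by name or drawn by name, but stay in all counts, sums and medians. The members and lists were chosen with earlier results of these data known. Replicates were biological per the sources, and the animals behind them are not named.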

Additional observations from a re-analysis of the deposited data

Results flagged for a closer look

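Signal appeared in rows outside the 92 genes. Rows of 234 ribosomal protein pseudogenes held a median of 220.6 RPM over the 9 samples, with means of 224 ± 40.1 in GFPlo, 218 ± 6.80 in GFPmed and 227 ± 54.4 in GFPhi (SD, n = 3). Of the 229 that passed the filter on low values, 0 were called higher in GFPhi than in GFPlo and 2 lower (limma). Of all genes tested, 2.38% were called higher and 1.51% lower. The 2 were Rpl35-ps1, with 9, 9 and 11 reads in GFPlo and 2, 1 and 2 in GFPhi, and Rps2-ps2, with 5, 2 and 4 reads and 0 in each GFPhi sample. Tlcd1, opposite Rpl23a, had at least 601 reads in every sample, and its TPM were 238, 371 and 378 in GFPlo, 303, 369 and 396 in GFPmed, and 420, 330 and 433 in GFPhi. Wdr38, opposite Rpl35, ran from 70.1 to 117 TPM. The pseudogene sum, Tlcd1 and Wdr38 were above the limit of 3 reads that a count of 0 allows in each sample.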

How the results depend on the processing

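In GFPhi against GFPlo the number of members called higher at any fold was 1, all by Rps15a. It was 0 with median-of-ratios scaling, with only the 2 groups compared, without the variance trend and, chosen after the data were seen, without the 3 libraries numbered 1. It was 2 with quantile normalization, where 1, Rpl7l1, was also lower, beside 624 higher and 398 lower of all 30693 genes tested. It was 5 with limma-voom on library totals, beside 4.03% of all genes. Leaving out each sample gave 0 to 1. With a fold of at least 2 the count was 0, but 1 with limma-voom on size factors, and 0 to 1 on leaving out samples. Scaling to the subunit genes added 1 lower call. In GFPhi against GFPmed limma-voom called 4 with library totals and 1 with size factors. The cause of these changes was not tested. The median over all 92 members moved from 0.22 to between 0.07 and 0.32 on leaving out samples in GFPhi against GFPlo, to 0.06 to 0.23 against GFPmed, and to -0.10 to 0.16 in GFPmed against GFPlo. Scaling moved the all-gene median from -0.09 to -0.02 (median-of-ratios) and to -0.25 (subunit genes). The GFPhi to GFPlo ratio of sums stayed at 1.15 to 1.17 by reads or exonic length.

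The sources tie same-numbered samples to no shared animal or batch. Deviations of all genes correlated at 0.0122 to 0.225 over the 9 same-numbered pairs and at a mean of -0.0305 over the 18 others, so not every pair was above 0.1, and 6 of 9 samples were closest to one of their own number. With the replicate block 2 members, Rpl13 (adjusted p = 0.0300 by limma) and Rps15a, were called higher, beside 585 of all 30693 genes tested.

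Of 899 alternative values for 43 named genes, 44 had the other sign, all uncalled, with the lowest adjusted p at 0.479 (limma). Scaling to the subunit genes gave Rpl10 -0.12, Rpl10a -0.15, Rpl22 -0.15, Rpl3 -0.10, Rpl5 -0.058, Rplp2 -0.13, Rps27a -0.058, Rps3 -0.036, Rps4x -0.017 and Rpsa -0.19. Without the 3 libraries numbered 1, Rpl10a was -0.018, Rpl22 -0.097, Rps27a -0.027, Rps3 -0.0041 and Rpsa -0.093. Quantile normalization gave Rpl10 -0.011, Rpl10a -0.012, Rpl36al 0.0013 and Rpsa -0.081. Median-of-ratios gave Rpl38 0.030 and Rplp0 0.066, limma-voom on size factors Rpl13a 0.012, Rpl38 0.052 and Rplp0 0.088, and a pseudocount of 0.1 Rpl10l 0.043. On leaving out samples the range was -0.063 to 0.10 for Rpl10a, -0.95 to 0.048 for Rpl10l, -0.18 to 0.028 for Rpl13a, -0.039 to 0.16 for Rpl22, -0.23 to 0.13 for Rpl38, -0.096 to 0.051 for Rplp0, -0.078 to 0.19 for Rplp2, -1.25 to 0.15 for Rps12l1, -0.75 to 0.28 for Rps4l and -0.093 to 0.12 for Rpsa.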
